A study of Homo sapiens with 4 samples.

Results

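The 40 genes described here encode the core machinery of macroautophagy, and they were taken from a poly(A) RNA-seq table of HepG2 cells by matching Ensembl identifiers to gene symbols in GENCODE release 44. The list was given by gene name, not by an expression cut-off, though earlier results of these data were known when it was chosen. All 40 had a row among the 61906 gene identifiers of the table, and 38 of them were abundant enough to test. HepG2 is an established human hepatocellular carcinoma line, labelled as wild type in both groups. One group was mock-treated and the other was exposed to 20 µM pyridostatin (PDS) over 24 h, and 2 libraries were made from each. PDS, a ligand of guanine quadruplexes (G4, folded structures of guanine-rich DNA or RNA), was compared with mock to ask how it alters transcript levels. Whether the 2 libraries of a condition represent independent cultures is not stated, so p-values cover only the spread between them, and this may be technical.

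Macroautophagy delivers cytoplasm and organelles to the lysosome inside a double membrane, the autophagosome. A kinase complex around ULK1 starts the process, a lipid kinase complex around BECN1 and PIK3C3 marks the growing membrane with phosphatidylinositol 3-phosphate (PI3P), and lipid transfer proteins enlarge it. A pair of ubiquitin-like conjugation reactions then attaches ATG8 proteins, the LC3 and GABARAP family, to membrane lipid. Cargo receptors such as SQSTM1 hold ubiquitinated cargo and bind ATG8 proteins, and SNARE and tethering proteins fuse the closed autophagosome with the lysosome. In liver cells the pathway is known for the turnover of mitochondria, glycogen, lipid droplets and protein aggregates.

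Levels are in TPM, a unit of relative transcript abundance that corrects for gene length and sums to the same total in each library. The read numbers behind the table came to 39217670 and 30408397 in the mock libraries and to 15573166 and 19647907 in the PDS libraries, so the treated cells were measured at lower depth. Transcripts of the mitochondrial genome took 14.5% to 15.3% of TPM in the mock libraries and 36.4% to 36.5% in the PDS libraries, and their part in the results was not tested. As deposited, most genes stood lower after PDS, with a median gene log2 fold change of -0.55, and the cause was not tested. Scaled by the total TPM of nuclear genes, that median was -0.19. TPM is a share of a fixed total, so a general fall in transcripts cannot be told apart from a shift in shares. To set the median gene to no change, values were divided by median-of-ratios factors of 1.23 and 1.27 (mock) or 0.806 and 0.793 (PDS). The result is called scaled TPM here, and each fold change is relative to the median gene and on the log2(scaled TPM + 1) scale, which understates the change of low genes. Testing with limma was limited to genes averaging 1 TPM or more, and a gene is said to rise or fall where its adjusted p (Benjamini-Hochberg, two-sided, over all 14686 tested genes) was below 0.05. By this rule 29.2% of all tested genes changed, 16.2% higher and 13.0% lower. All 10 hepatocyte markers checked were above 1 TPM in every library, whereas 2 of 6 leukocyte markers and 2 of 7 fibroblast and endothelial markers reached a mean of 1 TPM. The leukocyte markers that did were LYZ, which stood at 5876 to 7206 TPM and rose (0.84, adjusted p = 0.00736), and CD14 at 2.52 to 4.56 TPM, while PTPRC, the defining one, lay between 0.0216 and 0.0732 TPM. Of the other list PECAM1 (1.41 to 1.81 TPM) and CDH5 (0.319 to 1.69 TPM) reached it, and the collagen gene COL1A1 lay between 0.129 and 0.305 TPM.

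Autophagy transcripts spanned a wide range in mock cells. The highest was NBR1 at 94.4 ± 5.11 TPM (SD, n = 2), a receptor for ubiquitinated cargo. VMP1, an endoplasmic reticulum lipid scramblase, followed at 89.5 ± 2.83 TPM, and its libraries overlapped with those of NBR1. Next came 5 genes that did not differ beyond their spread: the scramblase ATG9A at 71.4 ± 3.81, GABARAPL2 at 71.1 ± 0.976, MAP1LC3B at 69.1 ± 5.95, SQSTM1 at 68.7 ± 2.82 and the protease ATG4B at 68.6 ± 4.99 TPM. At the other end of the tested genes stood the tether EPG5 (2.85 ± 0.0917 TPM), ATG10, the conjugating enzyme for ATG12 (3.22 ± 0.633 TPM), and the lipid transfer protein ATG2B (3.75 ± 0.0637 TPM). A pair of members fell below the filter and were not tested. ULK2, a paralog of ULK1, was between 0.0931 and 0.144 TPM, from 6 to 12 reads a library. MAP1LC3A was between 0 and 0.435 TPM, from 0 to 6 reads. In the GENCODE annotation on GRCh38, the genes on which the results turn most are MAP1LC3B (ENSG00000140941.14) at chr16:87383953-87404779, GABARAPL2 (ENSG00000034713.8) at chr16:75566375-75577881, GABARAPL1 (ENSG00000139112.11) at chr12:10212458-10223128, SQSTM1 (ENSG00000161011.20) at chr5:179806398-179838078, NBR1 (ENSG00000188554.15) at chr17:43170481-43211689 and ATG3 (ENSG00000144848.11) at chr3:112532510-112562046, the last on the minus strand and the others on the plus strand.

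**Figure D1:**
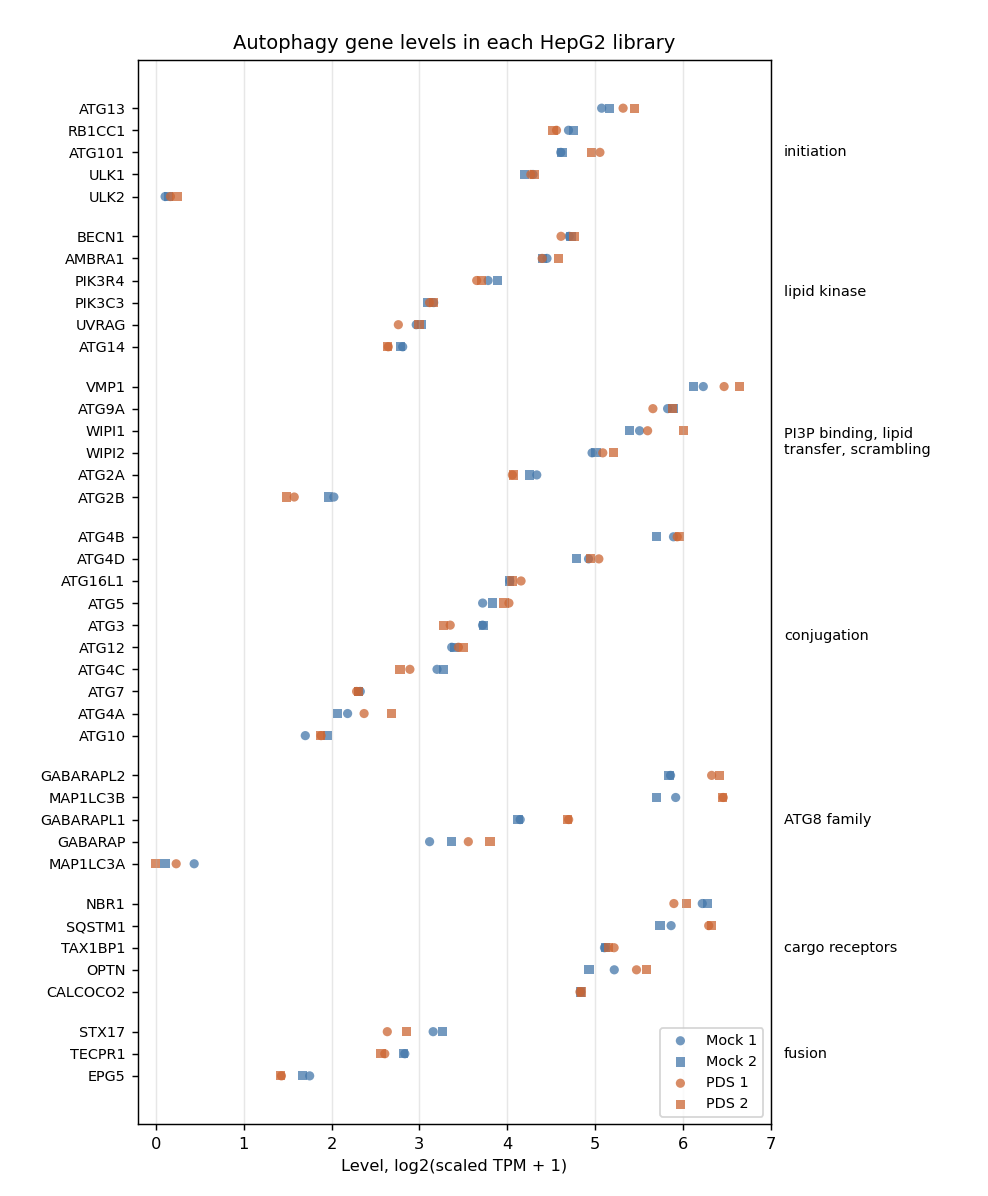
Level of each of the 40 autophagy genes as log2(scaled TPM + 1) in the mock libraries (blue) and the PDS libraries (orange), with circles for library 1 and squares for library 2, in groups by role. ULK2 and MAP1LC3A lie near 0, and the PDS points of MAP1LC3B, GABARAPL1, GABARAPL2 and SQSTM1 lie to the right of both mock points on this scale but not on TPM as deposited.

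Of the 38 tested members, 8 rose, 5 fell and 25 did not pass the threshold. These are 21.1% higher and 13.2% lower, against 16.2% and 13.0% of all tested genes, so the shares lay near the background. The median log2 fold change of the members was 0.06, with 23 positive and 15 negative values, and that of all tested genes was 0.00. An unadjusted p below 0.05 was reached by 19 members. In all 13 members that passed, the PDS libraries lay on 1 side of both mock libraries. Such separation was common, being found in 29 of the 38 tested members and in 70.8% of all tested genes. In RNA from a whole culture, fewer cells carrying a transcript and less of it per cell cannot be told apart.

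**Figure D2:**
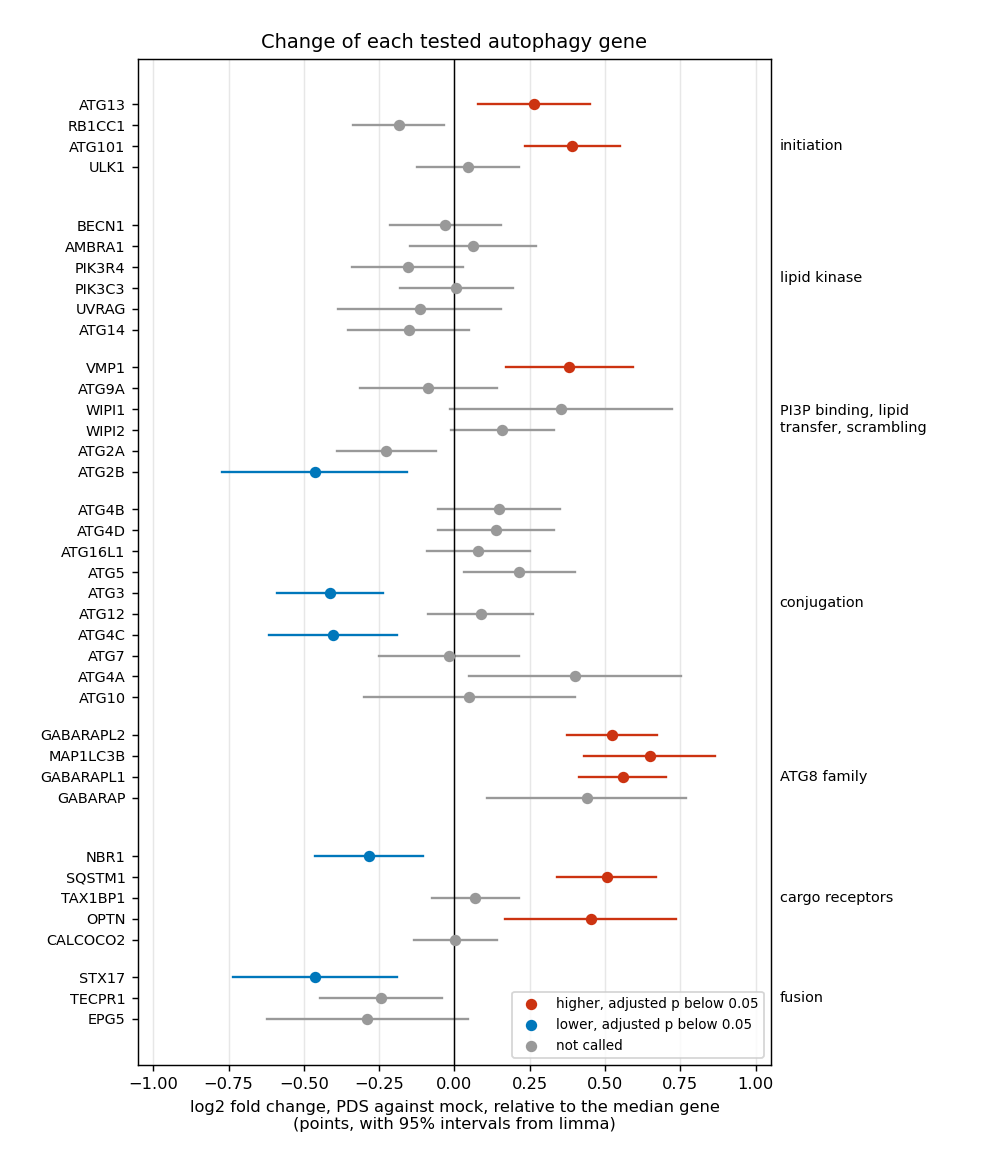
Log2 fold change of the 38 tested autophagy genes, PDS against mock and relative to the median gene (points), with 95% intervals from limma (lines), colored by whether the adjusted p was below 0.05. The 8 genes that rose lie between 0.27 and 0.65 and the 5 that fell between -0.46 and -0.28. On TPM as deposited 7 of the 8 turn negative and MAP1LC3B is at 0.01.

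All 4 tested genes of the ATG8 family had a positive fold change relative to the median gene, from 0.44 to 0.65. These small ubiquitin-like proteins coat the growing membrane, with MAP1LC3B as the standard marker of autophagosomes and the GABARAP subfamily also known for late steps of maturation. Relative to the median gene, 3 of the 4 tested members rose and the remaining one, GABARAP, was not called, with a family median of 0.54. As deposited, 0 of the 4 passed and the median was -0.09. MAP1LC3B stood at 59.5 and 51.0 scaled TPM in the mock libraries and at 87.0 and 86.8 in the PDS libraries. Both PDS libraries lay above both mock libraries, and the gene rose 1.57-fold (log2 fold change 0.65 ± 0.08, SE, adjusted p = 0.0101). Its deposited TPM barely differed, with 73.4 and 64.9 in mock and 70.2 and 68.8 in PDS.

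GABARAPL2 had 57.1 and 56.4 scaled TPM in mock and 79.3 and 84.7 in PDS. Again the groups did not overlap, and the change was 1.44-fold higher (0.52 ± 0.06, adjusted p = 0.00754). GABARAPL1, a paralog of GABARAP, had 16.7 and 16.4 scaled TPM in mock against 25.0 and 24.8 in PDS, so that the libraries within each group were almost equal. It rose 1.47-fold (0.56 ± 0.06, adjusted p = 0.00701). GABARAP itself, which is shorter and less abundant, had 7.67 and 9.32 scaled TPM in mock and 10.8 and 13.0 in PDS. The groups were separate here too, but the spread within them was wider and the gene missed the threshold (0.44 ± 0.13, adjusted p = 0.0594). About 48.2% of the exon bases of GABARAP also belong to other annotated genes, with 12.8% shared on the opposite strand. Reads there cannot be assigned to 1 gene with certainty, which limits both its level and its share of the family. On deposited TPM, GABARAPL2 had 70.4 and 71.8 in mock and 64.0 and 67.2 in PDS, GABARAPL1 had 20.6, 20.9, 20.2 and 19.7 in the same order, and GABARAP had 9.46, 11.9, 8.69 and 10.3. The near copies MAP1LC3B2, MAP1LC3BP1, MAP1LC3P and GABARAPL3 never exceeded 1.51 TPM, although how the authors treated reads that map to several genes was not given in the sources used here. When any 1 library was left out, the log2 fold change of MAP1LC3B lay between 0.54 and 0.76. That of GABARAPL2 lay between 0.48 and 0.57 and that of GABARAPL1 between 0.54 and 0.57. Such a fit leaves 1 library in a group, so it cannot settle whether these calls hold.

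Cargo receptors diverged from each other. SQSTM1 (p62) and OPTN rose relative to the median gene, NBR1 fell, and CALCOCO2 (NDP52) and TAX1BP1 were not called, so 2 of 5 rose and 1 fell with a median of 0.07. On the TPM as deposited, 0 rose and 3 fell (NBR1, CALCOCO2 and TAX1BP1). SQSTM1, which gathers ubiquitinated proteins into condensates and is itself degraded by autophagy, had 57.4 and 52.4 scaled TPM in mock and 77.5 and 79.0 in PDS. The groups did not overlap and the gene rose 1.42-fold (0.51 ± 0.06, adjusted p = 0.00976), while its deposited TPM was 70.7 and 66.7 in mock and 62.5 and 62.7 in PDS. NBR1, which resembles SQSTM1 in domain layout and works alongside it, went the opposite way. Its scaled TPM was 73.6 and 76.98 in mock and 58.6 and 64.8 in PDS. Both PDS libraries were lower, by 1.22-fold (-0.28 ± 0.07, adjusted p = 0.0379), and deposited TPM showed a deeper fall from 90.8 and 98.0 to 47.3 and 51.4. NBR1, the most abundant of the 40 genes in mock cells, was thus below SQSTM1 in both PDS libraries.

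OPTN, a receptor used for damaged mitochondria and bacteria, had 36.3 and 29.5 scaled TPM in mock and 43.4 and 46.9 in PDS. Its mock libraries were well apart but still both below PDS, and it rose 1.37-fold (0.45 ± 0.11, adjusted p = 0.0376). Its deposited TPM was 44.7 and 37.6 in mock and 35.0 and 37.2 in PDS. CALCOCO2, a receptor for bacteria and mitochondria, had nearly equal scaled TPM in all 4 libraries (27.6, 27.5, 27.4 and 27.9), with a 95% interval of its log2 fold change from -0.14 to 0.14. As deposited it stood at 34.0 and 35.1 TPM in mock and at 22.1 in both PDS libraries. TAX1BP1, its paralog, had 33.5 and 33.9 scaled TPM in mock and 36.2 and 34.6 in PDS (interval -0.08 to 0.21), and 41.3, 43.1, 29.2 and 27.4 TPM as deposited. With 1 library left out, the log2 fold change of SQSTM1 lay between 0.44 and 0.57. That of NBR1 lay between -0.36 and -0.21 and that of OPTN between 0.31 and 0.59. With 1 library then left in a group, these fits cannot settle whether the calls hold. About 22.4% of the exon bases of SQSTM1 also belong to MGAT4B or MRNIP on the opposite strand, and since the strand setting was not given, reads there cannot be assigned to 1 gene with certainty.

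Shares within a family do not depend on how a library is scaled. They sum to a fixed total, however, so the shares of its members do not move independently. SQSTM1 made up 25.1% and 23.8% of the summed TPM of the 5 receptors in mock and 31.9% and 31.2% in PDS. NBR1 went from 32.2% and 34.9% to 24.1% and 25.6%. OPTN increased its share from 15.9% and 13.4% to 17.8% and 18.5%, whereas CALCOCO2 had 12.1% and 12.5% before and 11.3% and 11.0% after. None of these 4 sets of libraries overlapped between groups, while the shares of TAX1BP1 did. On scaled TPM such separation was found in 70.8% of all tested genes, and no background was computed for shares. The ratio of SQSTM1 to NBR1, chosen after the values were seen, was 0.779 and 0.681 in mock and 1.32 and 1.22 in PDS. In contrast, the composition of the ATG8 family overlapped between groups for all 5 members. MAP1LC3B held 40.2 ± 2.69% of the family in mock and 42.2 ± 1.09% in PDS (SD, n = 2), GABARAPL2 held 41.4 ± 1.4% and 39.8 ± 0.891%, GABARAPL1 held 12.1 ± 0.350% and 12.1 ± 0.361%, and GABARAP held 6.21 ± 1.11% and 5.76 ± 0.619%. With 2 libraries against 2, an exact two-sided permutation test of such shares cannot go below p = 0.33, and none was run.

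**Figure D3:**
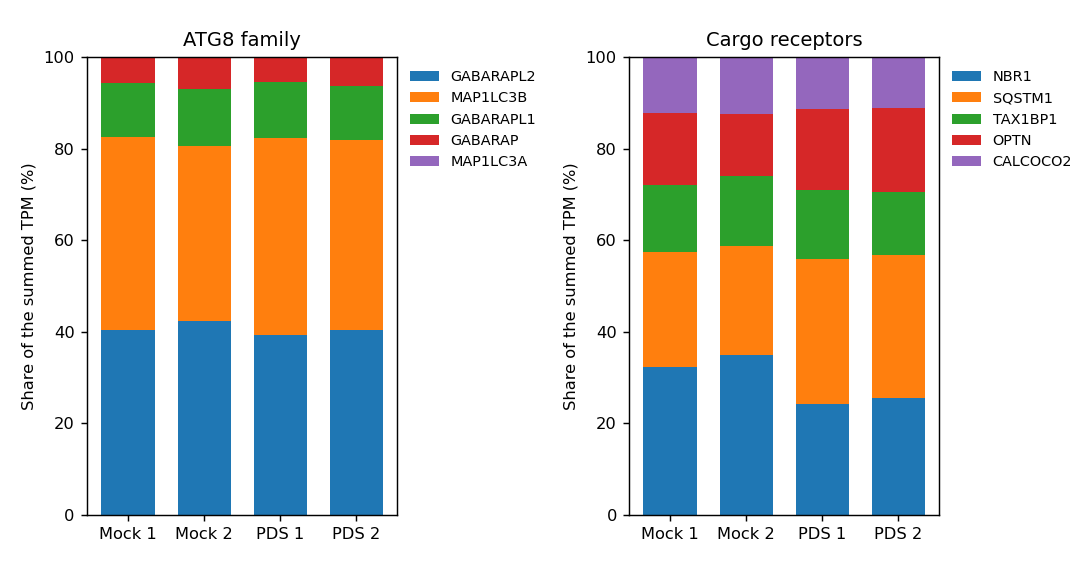
Share of each member in the summed TPM of the ATG8 family (left) and of the 5 cargo receptors (right) in every library, as stacked bars from 0 to 100%. SQSTM1 is at 23.8% to 25.1% in mock and 31.2% to 31.9% in PDS, NBR1 is smaller in both PDS libraries, and the ATG8 bars are alike in the 4 libraries within their spread, with MAP1LC3A too small to see.

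The conjugation machinery, with 10 tested members, held no gene that rose and 2 that fell, with a median of 0.08. As deposited, 9 of the 10 were lower. ATG3, the E2-like enzyme that joins ATG8 proteins to phosphatidylethanolamine, had 12.2 and 12.3 scaled TPM in mock and 9.21 and 8.66 in PDS. The groups did not overlap and it fell 1.33-fold on the log2(scaled TPM + 1) scale (-0.41 ± 0.07, adjusted p = 0.0158). Its deposited TPM went from 15.01 and 15.6 to 7.43 and 6.87. ATG4C, one of the ATG4 proteases that prime ATG8 proteins and release them from lipid, had 8.20 and 8.70 scaled TPM in mock and 6.42 and 5.87 in PDS. It too was separate between groups and fell 1.32-fold (-0.40 ± 0.08, adjusted p = 0.0250), with 10.1, 11.1, 5.18 and 4.66 deposited TPM. Its share of the summed TPM of the 4 ATG4 genes was 8.23% and 9.71% in mock and 6.25% and 5.74% in PDS, whereas ATG4B, the most active protease of the family, held 57.8 ± 1.19% and 59.2 ± 0.838% (SD, n = 2). ATG4A pointed the other way without passing (0.40 ± 0.14, adjusted p = 0.0867) and rested on 61 to 153 reads a library. ATG4D had a log2 fold change of 0.14 and ATG4B of 0.15.

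The remaining conjugation genes stayed near the median gene. Their log2 fold changes were 0.22 for ATG5 (adjusted p = 0.0811), 0.09 for ATG12, 0.08 for ATG16L1, 0.05 for ATG10 and -0.02 for the E1-like enzyme ATG7. The first 3 of these encode the subunits of the ligase that directs ATG8 lipidation. Their scaled TPM was higher in both PDS libraries, though not beyond the test. With 1 library left out, ATG3 had a log2 fold change between -0.46 and -0.38 and ATG4C between -0.46 and -0.35. Whether their calls hold cannot be settled with 1 library in a group. The ratio of MAP1LC3B to ATG3, chosen after the values were seen, was 4.89 and 4.16 in mock and 9.45 and 10.02 in PDS.

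Of the initiation complex, 2 of 4 tested subunits rose relative to the median gene and 0 fell (median 0.16), whereas all 4 fell as deposited. ATG101, a HORMA domain subunit that pairs with ATG13, had 23.4 and 23.7 scaled TPM in mock and 32.3 and 30.2 in PDS. The groups were far apart compared with their spread, and the gene rose 1.31-fold (0.39 ± 0.06, adjusted p = 0.0146), although deposited TPM was 28.9 and 30.1 in mock and 26.03 and 23.9 in PDS. ATG13, the adaptor subunit, had 32.7 and 34.9 scaled TPM in mock and 38.9 and 42.8 in PDS. It rose 1.20-fold and only just passed (0.27 ± 0.07, adjusted p = 0.0498), with 40.4, 44.4, 31.4 and 33.9 deposited TPM. The kinase ULK1 was at 0.04, with an interval from -0.12 to 0.21. RB1CC1 (FIP200), the large scaffold of the complex, was at -0.18 and missed the threshold (adjusted p = 0.0724), with both PDS libraries below mock. When 1 library was left out, ATG101 had a log2 fold change between 0.34 and 0.44 and ATG13 between 0.20 and 0.33. Whether their calls hold cannot be settled with 1 library in a group. About 19.2% of the exon bases of ATG101 are shared with an antisense transcript.

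No member of the lipid kinase complexes was called. The log2 fold changes of BECN1, ATG14, UVRAG, PIK3C3, PIK3R4 and AMBRA1 lay between -0.16 (PIK3R4) and 0.06 (AMBRA1), and an unadjusted p below 0.05 was reached by 0 of 6. PIK3C3, the catalytic subunit, was at 0.01 (interval -0.18 to 0.19), and BECN1, the scaffold that all forms of the complex share, at -0.03 (-0.21 to 0.15). ATG14 and UVRAG, which define alternative forms of the complex, were at -0.15 and -0.12. On TPM as deposited all 6 fell, with a median of -0.67, a little beyond the shift of the median gene. Scaling by the total TPM of nuclear genes called 3 of the 6 lower (BECN1 at -0.25, ATG14 at -0.35 and PIK3R4 at -0.37, median of the 6 -0.28), whereas voom on recovered reads, another limma method, called 0.

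Among genes of PI3P binding, lipid transfer and scrambling, 1 of 6 rose and 1 fell relative to the median gene (median 0.04), and 5 of 6 fell as deposited. VMP1 had 74.2 and 68.8 scaled TPM in mock and 87.7 and 99.3 in PDS, with no overlap between groups. It rose 1.3-fold (0.38 ± 0.08, adjusted p = 0.0282), with 91.5, 87.5, 70.7 and 78.8 deposited TPM. ATG2B had 3.07 and 2.91 scaled TPM in mock and 1.98 and 1.81 in PDS, so both PDS libraries were clearly lower. This bridge-like protein moves phospholipids from the endoplasmic reticulum to the growing membrane. Its transcript fell 1.38-fold on the log2(scaled TPM + 1) scale (-0.46 ± 0.12, adjusted p = 0.0435). At this low level the pseudocount matters, and with 0.1 the log2 fold change was -0.63. Deposited TPM of ATG2B went from 3.79 and 3.70 to 1.60 and 1.44. Its paralog ATG2A was at -0.23 ± 0.06 and did not pass (adjusted p = 0.0545), and ATG2B made up 13.8% and 13.9% of the ATG2 sum in mock and 11.2% and 10.2% in PDS. The PI3P-binding propellers WIPI1 (0.35 ± 0.14, adjusted p = 0.125) and WIPI2 (0.16 ± 0.07, adjusted p = 0.134) were higher in both PDS libraries without passing, and ATG9A was at -0.09. The libraries of WIPI1 differed most after PDS, at 47.5 and 63.3 scaled TPM. Leaving out 1 library put the log2 fold change of VMP1 between 0.29 and 0.47 and that of ATG2B between -0.52 and -0.42. WIPI1 varied more, from 0.15 to 0.56, the latter without PDS library 1. Whether the calls hold cannot be settled with 1 library in a group.

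Each of the 3 fusion genes had a negative fold change in every scaling shown here, and 1 fell at the threshold. STX17, the SNARE that autophagosomes acquire on closure, had 7.92 and 8.60 scaled TPM in mock and 5.21 and 6.25 in PDS. The groups did not overlap, and it fell 1.38-fold on the log2(scaled TPM + 1) scale (-0.46 ± 0.11, adjusted p = 0.0320). Its deposited TPM went from 9.77 and 10.9 to 4.20 and 4.96. The tethers EPG5 (-0.29 ± 0.13, adjusted p = 0.155) and TECPR1 (-0.24 ± 0.08, adjusted p = 0.0742) did not pass, though both PDS libraries were below both mock libraries. Voom on recovered reads called all 3 lower, with EPG5 at -0.44 and TECPR1 at -0.29, and nuclear scaling also called TECPR1 (-0.44). Voom called more genes in general, 5458 of 13966 against 4283 of 14686 in the main fit. All 3 fell as deposited (median -0.79). For STX17 the log2 fold change was between -0.58 and -0.36 when 1 library was left out. Whether its call holds cannot be settled with 1 library in a group.

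Exon length was associated with the fold change over all genes, and autophagy genes are long. The median summed exon length was 6820 bases among tested members and 4192 bases among all tested genes, and 30 of the 38 members were longer than the median gene. In the shortest of 3 equal classes of all tested genes (up to 2696 bases) 23.6% rose and 4.54% fell, in the middle class 17.5% and 11.7%, and in the longest (over 5947 bases) 7.44% and 22.7%. Of the 23 tested members in the longest class, 3 rose (ATG13, VMP1 and SQSTM1) and 4 fell (ATG2B, ATG3, NBR1 and STX17), and their median of 0.00 compares with -0.13 for all long genes. Of the 13 in the middle class 5 rose and 1 fell, with a median of 0.35 against 0.02. The 2 in the shortest class, GABARAP and ATG4D, did not pass. When the trend on exon length was removed from each library, 9 members rose and 2 fell, and the median became 0.12. Fewer genes passed in general, 3516 of 14673 against 4283 of 14686 before, with a median of -0.02. ATG3 (-0.37) and ATG4C (-0.48) still fell, NBR1 (-0.19), STX17 (-0.36) and ATG2B (-0.30) no longer passed, and WIPI2 (0.27) now did. The 8 members that rose all still passed, with SQSTM1 at 0.58, VMP1 at 0.50 and MAP1LC3B at 0.65. GABARAP moved from 0.44 to 0.29.

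**Figure D4:**
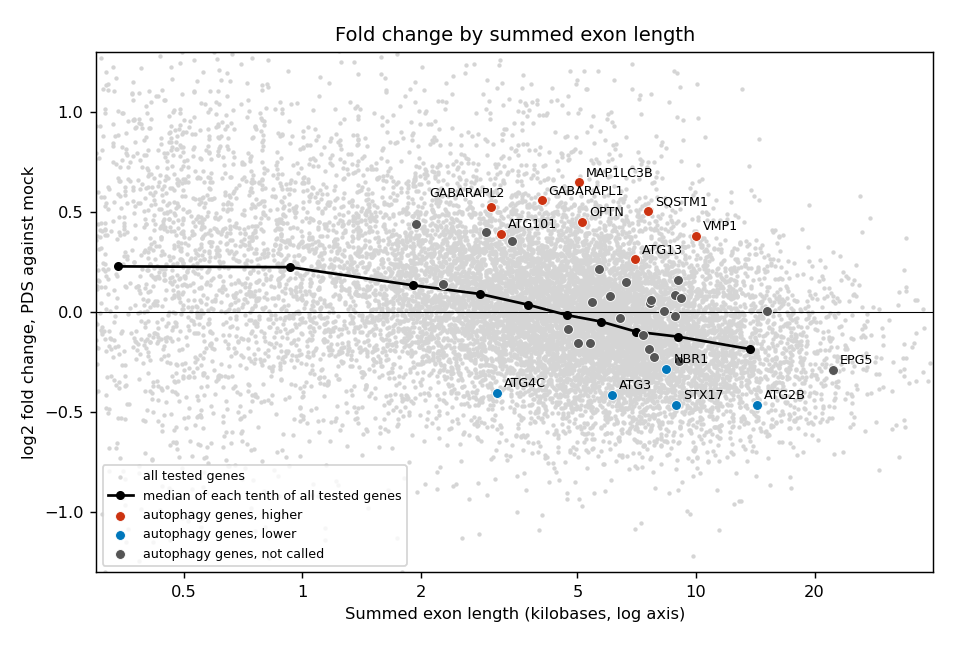
Log2 fold change, PDS against mock and relative to the median gene, against summed exon length in kilobases on a log axis, for all tested genes (grey), their median in 10 equal classes of length (black line) and the autophagy genes (colored by call). Genes beyond ±1.3 or outside 0.3 to 40 kilobases are not drawn. The black line falls with length. MAP1LC3B, SQSTM1 and VMP1 lie well above it on this scale, while ATG4C and ATG3 lie well below it and the long genes ATG2B and EPG5 lie nearer to it.

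The direction of many members depended on the reference. On TPM as deposited, with no rescaling, 0 of 38 members rose and 30 fell, against 2.58% of all tested genes higher and 71.8% lower. The PDS libraries were then below both mock libraries in 35 of the 40 genes and above them in 0. Scaling by the total TPM of nuclear genes gave 4 higher and 13 lower members, and 1168 and 4877 over all genes. Quantile normalization gave 5 and 5, and 1856 and 2343 over all genes, beside 8 and 5, and 2377 and 1906, under the median of ratios. The 5 members that fell kept a negative fold change under each of these scalings. The 8 that rose were positive under all but the deposited TPM, where MAP1LC3B was at 0.01 and the other 7 were between -0.37 (ATG13) and -0.06 (GABARAPL1). The 4 tested ATG8 genes lay between -0.15 and 0.01 as deposited, with no called change, while the median gene was at -0.55.

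**Figure D5:**
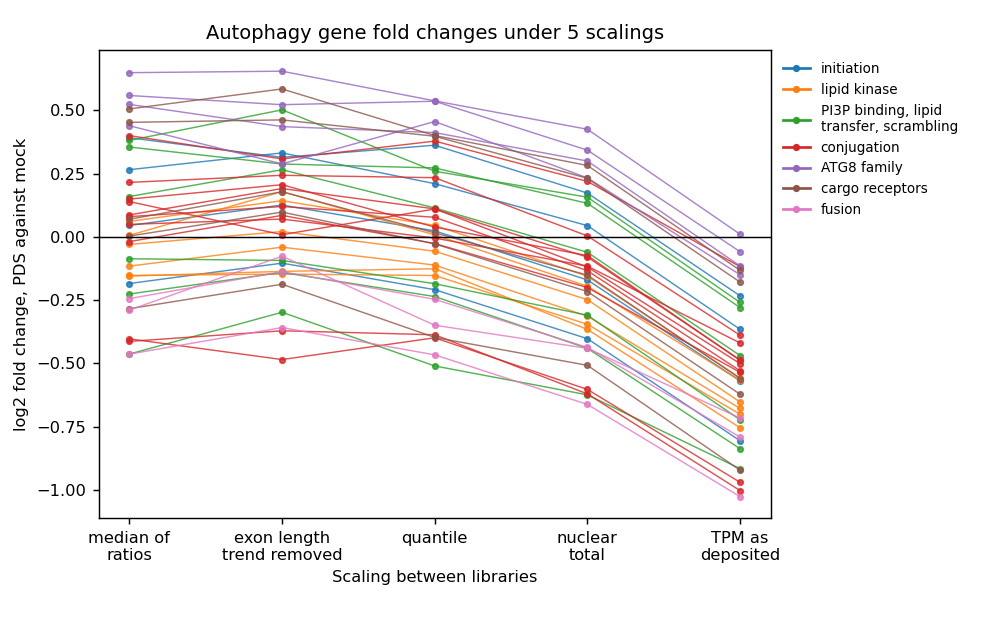
Log2 fold change of each tested autophagy gene, PDS against mock (lines, colored by role), under 5 ways of scaling the libraries. The lines are lower at the nuclear total than at the median of ratios and lowest at the TPM as deposited, where 37 of the 38 values are negative. MAP1LC3B is the highest line under each of the 5 scalings, and ATG2B, ATG3, ATG4C and STX17 are among the 5 lowest under each.

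Transcripts of 89 further pathway genes were counted by the same rule. Of the 78 tested, 25 rose and 8 fell relative to the median gene, with a median of 0.08. These are 32.1% and 10.3%, beside 16.2% and 13.0% of all tested genes. Under nuclear scaling 9 rose and 24 fell, and as deposited 1 rose and 65 fell. The list was drawn up with earlier results of these data known, so these shares cannot serve as a test of the pathway. Of 15 further core genes 5 rose and 2 fell, against 3 and 3 under nuclear scaling and 1 and 10 as deposited. The largest changes were in TP53INP2 (0.99 ± 0.10, adjusted p = 0.00717) and TP53INP1 (0.75 ± 0.08, adjusted p = 0.00701), both LC3-binding proteins, and in WDR45, a WIPI relative (0.59 ± 0.10, adjusted p = 0.0156). TP53INP2 had 57.1 and 48.2 TPM in mock and 68.7 and 66.4 in PDS as deposited. Its log2 fold change was 0.36 there, so the direction held on both scales but the size did not. Of 15 selective receptors 7 rose and 0 fell, led by the glycogen-binding receptor STBD1 (0.83 ± 0.12, adjusted p = 0.0113), the mitophagy kinase PINK1 (0.49 ± 0.10, adjusted p = 0.0276) and the mitochondrial receptor BNIP3L (0.43 ± 0.07, adjusted p = 0.0164). As deposited, STBD1 was at 0.29, PINK1 at -0.09 and BNIP3L at -0.21. The receptor counts also depended on the reference, with 1 higher and 3 lower under nuclear scaling and 0 and 13 as deposited.

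Fusion and tethering genes beyond the 3 above gave 2 higher and 0 lower of 11, namely the SNAREs VAMP8 (0.49) and YKT6 (0.26), both negative as deposited. These counts were 0 and 4 under nuclear scaling and 0 and 10 as deposited. Nutrient and energy signalling gave 10 higher and 5 lower of 28, but 5 and 8 under nuclear scaling and 0 and 23 as deposited. Its largest changes were in components of the amino acid sensing platform on the lysosome, LAMTOR4 (0.66 ± 0.12, adjusted p = 0.0180), RRAGC (0.66 ± 0.08, adjusted p = 0.00946) and RRAGA (0.57 ± 0.05, adjusted p = 0.00664). On TPM as deposited these were at 0.02, 0.12 and -0.07. MTOR, the kinase recruited there, named after its values were seen, fell (-0.55 ± 0.07, adjusted p = 0.0106) and has 13373 exon bases, against 1599 for RRAGA. Of 9 transcription factors 1 rose and 1 fell, against 0 and 6 under nuclear scaling and 0 and 9 as deposited. TFE3, which activates lysosomal and autophagy genes, had 32.3 and 30.9 scaled TPM in mock and 36.2 and 37.9 in PDS (0.22 ± 0.06, adjusted p = 0.0481, but -0.41 as deposited). Its relative TFEB had 9.86 and 8.99 against 9.95 and 10.03, with a log2 fold change of 0.08 that did not pass (adjusted p = 0.470). FOXO1 fell (-0.52 ± 0.10, adjusted p = 0.0200).

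Promoters were compared because PDS binds G4. The RefSeq promoter table (GRCh38.p14) held 42 transcription starts of 34 of the 40 genes. The 250 bases before each start were searched on both strands for 4 runs of GGG or longer separated by 1 to 7 bases. This motif was present before 13 of the 42 member starts (31.0%), beside 32.0% of the 13864 starts of tested genes and 23.5% of all 35116 starts. By gene, it was found in 5 of 8 members that rose, in 1 of 4 that fell and had an entry, and in 5 of 21 that were not called. It was found in 3784 of the 9686 tested genes with an entry. The median GC content of the searched bases was 68.4% for members that rose, 54.8% for those that fell and 62% for those not called. For all tested genes it was 64.8%. Over all tested genes with an entry, 16.9% of the 3784 with the motif rose and 14.6% fell, against 15.1% and 15.5% of the 5902 without it, and no test was made of the members. A sequence match does not show that a G4 folds. Among called members with the motif, the stretches of the 3 that rose most and of the only 1 that fell are shown. They are printed with 15 bases on either side, 5′ to 3′ along the gene, with the G runs (or, for ATG3, the C runs that are G runs on the other strand) in capitals.
MAP1LC3B: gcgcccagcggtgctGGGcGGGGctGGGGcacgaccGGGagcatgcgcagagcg
GABARAPL1: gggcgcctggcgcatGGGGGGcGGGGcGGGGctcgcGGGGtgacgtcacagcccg
SQSTM1: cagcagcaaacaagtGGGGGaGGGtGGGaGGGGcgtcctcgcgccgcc
ATG3: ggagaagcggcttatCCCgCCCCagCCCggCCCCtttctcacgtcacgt
These lie at chr16:87392097-87392150 (plus strand), chr12:10212807-10212861 (plus strand), chr5:179806320-179806367 (plus strand) and chr3:112561976-112562024 (minus strand). Counted from the start site, the motif spans bases -224 to -201 in MAP1LC3B, -55 to -31 in GABARAPL1, -58 to -41 in SQSTM1 and -47 to -29 in ATG3. GABARAPL2, which rose by nearly as much as GABARAPL1, has no such motif in its window. The sequence CACGTG, the core of the E-box bound by TFEB and TFE3, read the same on both strands and with no overlap with the G4 motif searched, occurred before 2 of the 42 starts (ATG3 and ATG14), that is 4.76%, beside 8.38% of the starts of tested genes.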

How the data were processed

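The deposited table held TPM, a length-corrected expression signal, for the 4 libraries. Per the study's methods, the authors enriched poly(A) RNA, aligned reads to GRCh38 with STAR (2.7.0), counted them with featureCounts (2.0.3) and tested counts with DESeq2 (1.36.0). Which annotation release, strand option and TPM formula were used is not given in the sources used here. Of 61910 rows, 2 totals rows that carry no identifier and 2 repeats of an identifier at 0 TPM were left out. Of 61906 identifiers, 59984 (96.9%) matched GENCODE 44 with version. The authors' group means were not used.

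TPM times summed exon length gave, for each library, integer multiples of a single step (within 0.05 reads for at least 99.89% of values up to 1000 reads), which gave read numbers, except for ATG2A, whose version did not match. Since the values are not counts, limma (3.58.1, R 4.3.3) was fitted on log2(scaled TPM + 1) with a variance trend over all 4 libraries without covariates (genes averaging 1 TPM or more). Read numbers entered only a limma-voom alternative. The fitting steps were tested on simulated data. Of the 40 members, 22 share exon bases with another annotated gene, 9 of them over 10%, the most in GABARAP (48.2%), ATG9A (38.8%) and WIPI1 (28.1%).

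The members and gene lists were chosen with earlier results of these data known. Per-library values were given for each called member with separate groups, each ATG8 gene and each cargo receptor, and other members by fold change or range. From each further list came up to 3 called genes with the largest change, with TFEB and TFE3, and promoters came from up to 3 called genes in each direction with a G4 motif. Alternatives were other scalings, pseudocounts of 0.1 and 0.5, no filter or a mean of at least 5 TPM, the replicate number as a block, each library left out, voom, and removal of the exon length trend.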

Additional observations from a re-analysis of the deposited data

How the results depend on the processing

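Relative to the median gene, 8 members rose and 5 fell. On TPM as deposited these were 0 and 30 of 38 (median -0.55), with 379 and 10538 of all genes and 1 and 65 further pathway genes. On that scale the median gene is lower too. There 22 members turned from positive to negative. Those called in either fit were ULK1 (-0.57), ATG13 (-0.37), ATG101 (-0.23), PIK3C3 (-0.57), AMBRA1 (-0.56), WIPI2 (-0.47), VMP1 (-0.26), ATG4B (-0.49), ATG4D (-0.49), ATG5 (-0.39), ATG10 (-0.42), ATG12 (-0.50), ATG16L1 (-0.53), GABARAPL1 (-0.059), GABARAPL2 (-0.12), SQSTM1 (-0.13), OPTN (-0.18), CALCOCO2 (-0.62) and TAX1BP1 (-0.56), and WIPI1 (-0.28), ATG4A (-0.12) and GABARAP (-0.15) were called in neither. Scaling by nuclear TPM gave 4 and 13 members (median -0.15), 1168 and 4877 genes and 9 and 24 further genes. There ATG13, ATG101, VMP1 and OPTN lost their calls, RB1CC1, BECN1, ATG14, PIK3R4, ATG2A, ATG9A and TECPR1 gained one, and 11 members turned from positive to negative, of which only CALCOCO2 (-0.22) was called. Quantile normalization gave 5 members higher (ATG13, VMP1 and OPTN lost). Without the filter on low values, 50562 genes were tested and 4 and 0 members, 2 role groups, 799 and 438 genes and 7 and 3 further genes passed. Removing the exon length trend left 2 members lower (median 0.12), with 3516 of 14673 genes called. Voom on recovered reads gave 12 members higher and 8 lower and 13 further genes lower. It called more genes in general, 5458 of 13966 against 4283 of 14686 in the main fit. Among members, calls were gained by RB1CC1, WIPI1, ATG4A, ATG5, GABARAP, EPG5 and TECPR1. The cause of these last differences was not tested. Pseudocounts of 0.1 and 0.5 changed no member's call.

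Deviations of same-numbered libraries were not correlated (-0.03 over 14686 genes), but with 2 libraries a group this cannot show whether they were paired. With the number as a block, 1138 genes and 3 members fell and 16 further genes rose, ATG13, ATG2B, VMP1, ATG4C and OPTN losing their calls and GABARAP gaining one.

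Leaving out 1 library, with the lone library of that group assumed to vary like the other group, gave between 0 and 1442 genes higher, 0 and 879 lower, 0 and 5 members higher, 0 and 2 lower, 0 and 4 role groups, 0 and 11 further genes higher and 0 and 7 lower. No gene passed in limma without mock library 1 or 2, where 4635 and 4117 genes and 12 and 13 members had an unadjusted p below 0.05. Without PDS library 1 the members called were GABARAPL1, GABARAPL2 and WIPI1. Without PDS library 2 they were ATG101, MAP1LC3B, GABARAPL1, GABARAPL2, SQSTM1, NBR1 and STX17. No member reversed its direction in a called change. Low levels limit ULK2 and MAP1LC3A, with at most 12 reads a library, and 11 and 6 in the deepest one, mock library 1.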
